A study of Rattus norvegicus with 2 samples.

Results

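Chemokines and their receptors were followed in cells of the hypothalamus of female rats. The members were taken by symbol from the gene list of the files, as every Ccl, Cxcl, Ccr, Cxcr or Xcl gene with a number, together with Cx3cl1, Cx3cr1, Xcr1 and the atypical receptors Ackr1 to Ackr4. This rule matched 54 of 32883 genes, namely 34 ligands, 17 receptors and 3 atypical receptors. Ackr1 and Ccr2 were not matched under those symbols and were not analysed here.

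The data were 2 single-cell RNA libraries made with a droplet 3′ kit from hypothalamic tissue that holds the anteroventral periventricular (AVPV) and arcuate (ARC) areas. Both came from Sprague Dawley females at PND 29 (4 weeks old), and the tissue of 3 rats was pooled in each. The tissue was dissociated with collagenase. In SC300 rats a capsule of silicone holding 300 µg of estradiol benzoate (EB), a long-lasting ester of estradiol, was placed under the skin at PND 0.5. The study's methods give Control rats a capsule with sesame oil alone, and the sample labels call them intact. The study used this comparison to count cells that express the kisspeptin gene Kiss1 and to find genes that differ in the cluster holding them. It reports that serum estradiol was still higher in SC300 than in Control rats at about this age.

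Chemokines are small secreted proteins that guide moving cells along a gradient, and each binds one or a few receptors that signal through inhibitory G proteins. Atypical receptors bind chemokines without that signal and remove or hold them. In the brain, microglia release Ccl3, Ccl4 and Ccl2 when disturbed, neurons carry Cx3cl1 that is read by Cx3cr1 on microglia, and vessels release Cxcl12, which is read by Cxcr4 and scavenged by Ackr3.

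With 1 library a group there was no replicate, so differences were not tested. Levels are UMIs of a gene scaled to a total of 1000000 (CPM, where a UMI marks 1 captured RNA molecule) over the summed cells of a type, with exact Poisson 95% intervals. Differences are log2 ratios of SC300 over Control with exact conditional binomial intervals. All of these intervals cover counting error only, and they hold nothing of the spread between rats. A pair of member and cell type was compared where both libraries together held at least 50 UMIs of it, and "past the fold" means a ratio beyond 1.5-fold in either direction.

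At least 200 detected genes were found in 4296 Control and 4379 SC300 cells, and the median depths were 7986 and 8182 UMIs per cell. The libraries shared 7 cell barcodes among those kept. Cells were assigned to types by marker genes, none of them a member, and each name below stands for such a gate. In the gated microglia all 6 microglial markers were detected, at 2171 and 2104 CPM in sum, against 77.3 and 128 CPM in the gated macrophages, whose own 6 markers summed to 7048 and 6747 CPM. The same markers had set the gates, so these sums are no separate check of them. The gated macrophages were few, 14 Control and 44 SC300 cells. The mural gate was not clean, since the endothelial markers summed to 5378 and 3671 CPM in it beside 5158 and 7044 CPM of its own, and the erythroid markers to 312 and 7881 CPM. Astrocyte markers stood at 58.0 and 772 CPM in the gated macrophages.

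Reference sequence is shown first for 4 ligands that the libraries held unequally or mainly in the immune gates. The stretches run from 250 bases before to 50 bases after the start of the gene, in RefSeq's annotation of build GRCr8, read 5′ to 3′ on the gene's strand. Of the 54 members 41 had such an entry. Capitals mark matches on either strand to the NF-kB consensus, to the AP-1 motif TGANTCA, to the interferon-type motif (GAAA, any 2 bases and GAAA again) and to the TATA motif TATAAA, which were chosen with the genes' levels known.
Cxcl1, chr14:17479272-17479571, minus strand: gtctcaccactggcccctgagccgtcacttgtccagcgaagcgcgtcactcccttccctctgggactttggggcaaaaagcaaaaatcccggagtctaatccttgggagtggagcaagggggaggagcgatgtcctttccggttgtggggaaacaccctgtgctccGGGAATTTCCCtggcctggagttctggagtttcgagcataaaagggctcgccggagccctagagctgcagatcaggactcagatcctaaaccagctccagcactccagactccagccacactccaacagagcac
Cxcl2, chr14:17467206-17467505, minus strand: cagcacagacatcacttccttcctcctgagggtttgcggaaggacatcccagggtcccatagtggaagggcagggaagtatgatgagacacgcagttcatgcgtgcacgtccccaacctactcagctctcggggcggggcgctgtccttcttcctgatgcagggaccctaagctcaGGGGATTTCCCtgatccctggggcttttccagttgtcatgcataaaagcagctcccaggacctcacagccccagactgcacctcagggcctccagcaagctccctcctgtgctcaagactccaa
Cxcl10, chr14:15988816-15989115, plus strand: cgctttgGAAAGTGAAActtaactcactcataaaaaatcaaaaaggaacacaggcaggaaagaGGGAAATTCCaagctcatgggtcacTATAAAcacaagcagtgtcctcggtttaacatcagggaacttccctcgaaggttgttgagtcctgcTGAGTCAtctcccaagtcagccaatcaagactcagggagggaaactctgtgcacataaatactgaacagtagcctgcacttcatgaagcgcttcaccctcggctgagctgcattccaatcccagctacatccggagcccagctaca
Ccl7, chr10:67513845-67514144, plus strand: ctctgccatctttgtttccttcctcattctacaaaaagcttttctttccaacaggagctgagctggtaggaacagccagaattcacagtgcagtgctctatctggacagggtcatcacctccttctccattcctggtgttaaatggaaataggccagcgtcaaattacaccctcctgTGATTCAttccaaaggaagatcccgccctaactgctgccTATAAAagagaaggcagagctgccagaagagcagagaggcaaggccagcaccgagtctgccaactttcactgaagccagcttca

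The neutrophil attractants Cxcl1 and Cxcl2 each held overlapping matches to the NF-kB consensus, which began 84 and 74 bases before the start. Cxcl10, a lymphocyte attractant known as an interferon target, held 1 match to each of the 4 motifs, with the interferon-type motif 243 bases before the start. Ccl7, a monocyte attractant, held an AP-1 match 73 bases and a TATA match 34 bases before it. Among all 33469 promoters of the table, 4.18% held the NF-kB consensus, 7.33% the AP-1 motif, 3.92% the interferon-type motif and 14.2% the TATA motif. Of the 41 member promoters, 8 held the first, 7 the second, 2 the third and 11 the last. These are matches of letters and were not set against binding.

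The members were unevenly abundant. Together they had 69702 UMIs in Control and 81066 in SC300, and Ccl3 (ENSRNOG00000011205), Ccl4 (ENSRNOG00000011406), Cxcl12 (ENSRNOG00000013589), Ccl2 (ENSRNOG00000007159) and Cxcl14 (ENSRNOG00000011984) took 75.2% of these. At least 50 UMIs over both libraries were found for 30 members, which were 22 ligands, 6 receptors and 2 atypical receptors. Another 18 had 1 to 49 UMIs, and Ccl21, Ccl25, Ccr4, Ccr8, Cxcr1 and Ackr2 had none in either library. For a ratio a count of 0 was set to 3 UMIs, which is lower than the upper end of the 95% intervals used for levels.

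Most of the abundant members lay mainly in 1 cell type. Gated microglia held 92.5% of the Ccl4 UMIs in Control and 90.8% in SC300, and 93.4% and 92.7% of those of Cx3cr1. Astrocytes held 85.2% and 79.8% of Cxcl14, and neurons held 79.4% and 79.6% of Ccl27. Ccl17, better known from dendritic cells, lay almost wholly in the gate of ependymal cells and tanycytes, the cells that line the third ventricle, with 100 of its 109 Control UMIs and 93 of its 98 SC300 UMIs.

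**Figure D1:**
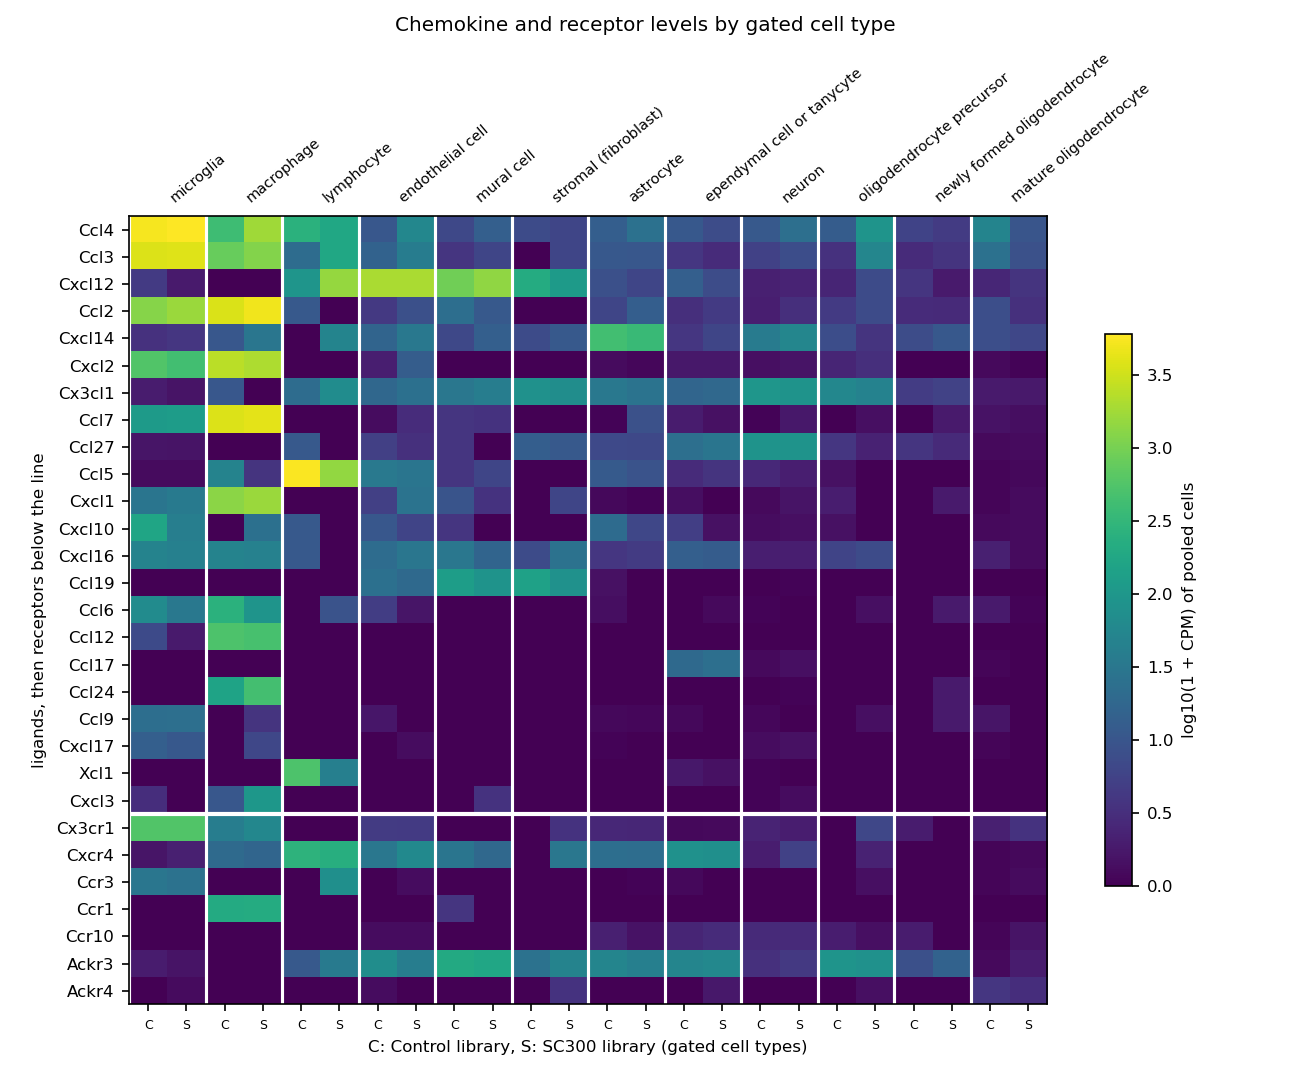
Levels of members with at least 50 UMIs, as log10 of 1 plus CPM, in 12 gated cell types, with the Control (C) and SC300 (S) library side by side; ligands stand above the white line and receptors below it. The 2 columns of a type look alike in most types, and the immune, vascular, astrocyte and neuron gates each light up a different set of genes.

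Between the libraries, 80 pairs of a member and a cell type could be compared over 11 cell types, and they involved 26 members. Newly formed oligodendrocytes count among the 11, but no member reached the minimum of UMIs in them. Past the fold, 19 pairs were higher in SC300 and 14 were lower, and 47 lay within it. Over all genes and the same cell types, 3.56% of pairs were past the fold upward and 3.9% downward. Many of the members' calls rested on very few cells. Without the 3 highest cells of each library, 12 of the 19 and 9 of the 14 were still past it in the same direction. Without the cells that Scrublet marked as doublets, 71 pairs could be compared, 9 higher and 11 lower, against 3.54% and 3.88% of all pairs. The 15 calls lost in this way were of members that lay mainly in microglia or macrophages, among them Ccl2, Ccl3, Ccl4 and Ccl7, and they were made in neurons, astrocytes, the oligodendrocyte line or endothelial cells. They then lay within the fold, on its other side or under 50 UMIs. With at least 20 UMIs, 31 of 115 pairs were higher and 23 lower, against 6.87% and 6.82% of all pairs. With at least 100 UMIs, 14 of 63 were higher and 6 lower, against 2.09% and 2.45%, and at 2-fold 14 of 80 were higher and 8 lower, against 0.996% and 0.91%.

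Microglia held most of the members' UMIs, and their main ligands and receptors differed little between the libraries. There were 441 Control and 429 SC300 microglia. Ccl4 stood at 5260 CPM (5182 to 5340) in Control and at 6005 CPM (5923 to 6087) in SC300, and the log2 ratio was 0.19 (0.16 to 0.22). Ccl3, which like Ccl4 draws monocytes and T cells, stood at 3778 CPM (3711 to 3845) and 3934 CPM (3868 to 4002), and the log2 ratio was 0.06 (0.02 to 0.09). Both genes were thus within the fold, and the higher library was SC300 in each.

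Ccl2, the main attractant of monocytes, stood at 1242 CPM in Control and 1597 CPM in SC300 (log2 ratio 0.36, 0.30 to 0.42). Cxcl2 stood at 563 and 432 CPM (log2 ratio -0.38, -0.48 to -0.28). Ccl7, Cxcl1, Ccl9, Cxcl16 and Cxcl17 were also within the fold, with log2 ratios between -0.37 and 0.33. The values of Ccl7 and Cxcl1 depended on few cells, since without the 3 highest cells of each library they came to 0.93 and 1.01.

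The microglial ligands past the fold were Cxcl10 and Ccl6, both lower in SC300. Ccl6 is a myeloid chemokine of rodents. It had 213 UMIs in 91 of 441 Control cells and 109 UMIs in 67 of 429 SC300 cells (log2 ratio -1.03, -1.38 to -0.69). Without the 3 highest cells of each library the value was -0.96. Cxcl10 had 540 UMIs in 39 Control cells and 137 UMIs in 24 SC300 cells, and 1 Control cell held 342 of them. Its log2 ratio was -2.05 (-2.33 to -1.77), and -1.48 without the 3 highest cells of each library. Leaving out only the Control cell with 342 UMIs was not tried. That cell lay in the microglial cluster led by Arl11, Tmem119 and P2ry13, described below, where Cxcl10 had 343 and 4 UMIs. In the cluster led by Tnf and Il1b it stood at 98.9 and 65.7 CPM (log2 ratio -0.59, -0.92 to -0.27). Without the 3 highest cells of each library the value there was -1.36. The median log2 ratio of the 14 microglial members was -0.09, beside -0.04 over all genes. In microglia 0 of 14 members were higher past the fold, against 2.3% of 7086 genes, and 2 of 14 were lower, against 4.08%.

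In microglia and astrocytes, and also in ependymal cells and tanycytes, several interferon targets other than Cxcl10 were lower in SC300. Of a list of 10 interferon-stimulated genes, 9 were in the files and 4 could be compared in microglia, of which 3 were lower past the fold and none higher. Ifit3 had 137 and 6 UMIs there, Isg15 149 and 36, and Oasl2, which stayed within it, 197 and 192. Whether these differences rested on few cells was not tested. In macrophages none of the list could be compared, and its sum was higher in SC300, at 135.4 and 327.5 CPM. In ependymal cells and tanycytes 4 of 5 genes of the list were lower and none higher. Their median log2 ratio was -1.12, and the list summed to 92.6 and 48.8 CPM. In endothelial cells 1 of 8 was lower and none higher. In astrocytes 4 of 7 of these genes were lower and none higher. Cxcl10 itself had 202 UMIs in 8 Control astrocytes and 61 in 5 SC300 astrocytes (log2 ratio -1.88, -2.31 to -1.46). Of these UMIs, 1 Control cell held 133 and 1 SC300 cell held 41, so the ratio rested on very few cells. Without the 3 highest cells of each library it was -2.61, with few positive cells left. A cluster of 40 astrocytes led by Mx1, Rsad2, Cxcl10 and Isg15 held 22 Control and 18 SC300 cells. What part these few cells had in the difference was not tested.

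Cx3cr1, the receptor of Cx3cl1, was broadly detected in microglia. It had a UMI in 92.1% of Control and 93.7% of SC300 microglia, at 575 CPM (549 to 601) and 564 CPM (540 to 590), and the log2 ratio was -0.03 (-0.12 to 0.07). Ccr3, the receptor of eotaxins, stood at 29.8 and 25.2 CPM, and 90.1% of its UMIs lay in this gate. Of the receptors with fewer than 50 UMIs, Xcr1 had all of its 6 and 12 UMIs in microglia.

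Ccl3 was spread more unequally over microglia than the receptor Cx3cr1. Ccl3 had a median of 9 UMIs per cell in Control and 14 in SC300, with 191 and 220 in the highest cell, and the 10% of cells with the most held 44.1% and 40.9% of its UMIs. For Cx3cr1 the medians were 4 and 4 UMIs, and the upper 10% of cells held 23.5% and 22.7%. Across microglia, the UMIs of Ccl3 and Ccl4 had a Spearman correlation of 0.81 in Control and 0.79 in SC300, and 0.78 and 0.74 in cells thinned to 2000 UMIs. For Ccl3 and Cx3cr1 it was 0.11 and 0.04. These correlations share the library and its depth and are given as a description.

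Clusters made without the members divided microglia in much the same proportions in the libraries. The cluster led by Tnf, Il1b and Il1a held 47.2% of Control and 46.9% of SC300 microglia. In it Ccl4 stood at 7378 and 8986 CPM, Ccl3 at 5206 and 5659 CPM and Ccl2 at 1869 and 2578 CPM. In the cluster led by Arl11, Tmem119 and P2ry13, with 44.2% and 46.2% of the cells, Ccl4 stood at 2098 and 1717 CPM, Ccl3 at 1664 and 1497 CPM and Ccl2 at 283 and 164 CPM. Ccl2, Ccl3 and Ccl4 were thus higher in SC300 in the first cluster and lower in SC300 in the second. Ccl7 went the same way, at 143 and 189 CPM in the first and 75.1 and 24.4 CPM in the second. Its values rested on few cells, and 1 Control cell held 160 of its 284 Control UMIs in the first. The log2 ratios of Ccl2 were 0.46 (0.40 to 0.53) and -0.78 (-1.04 to -0.53). Cx3cr1 had 592 and 554 CPM in the first and 572 and 609 CPM in the second. The immediate-early gene Fos stood at 6083 and 5809 CPM in the first and 2564 and 2281 CPM in the second. Jun, another, stood at 3998 and 3938 CPM and at 2866 and 2397 CPM. The part of the dissociation of the tissue was not tested. Without the 3 highest cells of each library Ccl2 had 0.47 in the first and -0.72 in the second. In the second, Ccl3 then came to -0.005 and Ccl4 went from -0.29 to -0.12. Ccl7 then had only 13 and 2 UMIs in the second, and its log2 ratio in the first moved from 0.40 to 1.97. The difference between the clusters was not tested.

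**Figure D2:**
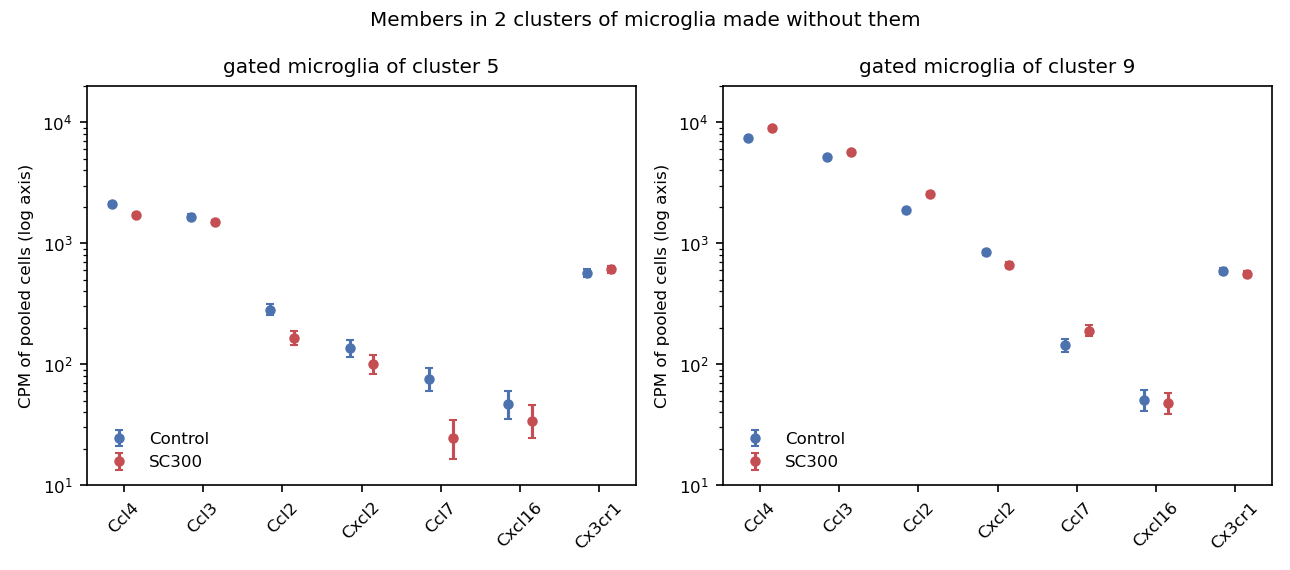
CPM of 7 members (log axis) in gated microglia of cluster 5, led by Arl11, Tmem119 and P2ry13, and of cluster 9, led by Tnf and Il1b, in the Control (blue) and SC300 (red) library; bars are Poisson 95% intervals, hidden by the points where small. Ccl4, Ccl3, Ccl2 and Cxcl2 sit far higher in cluster 9, while Cx3cr1 sits close to its level in cluster 5.

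Genes that work below the receptors differed little in microglia. Of a list of 17 signalling genes, 16 were in the files and 14 could be compared, and 0 were past the fold in either direction, with a median log2 ratio of 0.04. Gnai2, an inhibitory G protein subunit, stood at 826 and 809 CPM, and Rgs10, which shortens G protein signals, at 2267 and 2177 CPM. Of 13 inducible cytokine and NF-kB target genes, 11 could be compared, of which 1 was higher, the cytokine Il1a with 90 and 151 UMIs, and none lower. Il1b stood at 2045 and 2049 CPM and Tnf at 138 and 130 CPM. Of 14 immediate-early and heat shock genes, which mark recent stimulation and also dissociation of tissue, 1 was higher and 1 lower, at 25970 and 24150 CPM in sum. Of 5 genes of chemokine type under other symbols, 3 could be compared, of which Pf4 was lower, at 82.0 and 53.7 CPM, and the chemerin receptors Ccrl2 and Cmklr1 stood within the fold. What part the immediate-early genes had in the chemokine levels was not tested.

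Macrophages had another set of ligands. Ccl7 stood at 3732 CPM (3369 to 4123) in 14 Control macrophages and at 4154 CPM (3950 to 4365) in 44 SC300 macrophages (log2 ratio 0.15, -0.01 to 0.32). Ccl2 stood at 3664 CPM (3305 to 4052) and 4990 CPM (4766 to 5221), and the log2 ratio was 0.45 (0.29 to 0.61). Cxcl2 stood at 2427 and 2071 CPM, Cxcl1 at 1315 and 1614 CPM and Ccl12, which also draws monocytes, at 522 and 482 CPM. All of these were within the fold. With the macrophage cluster in place of the gate, 26 Control and 56 SC300 cells, Ccl7 stood at 1582 and 2782 CPM. That cluster was not macrophages alone. It held 55 gated macrophages, 16 gated lymphocytes, 2 gated endothelial cells and 9 cells that passed no gate, and the part of these other cells was not tested. Ccr1, a receptor of Ccl3 and Ccl7, had 95.2% of its UMIs in this gate, at 203 and 210 CPM.

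Past the fold in macrophages were 4 members that were higher and 1 that was lower in SC300, of 11, against 17.4% of 1189 genes upward and 4.79% downward. Ccl24, an eotaxin, had 16 UMIs in 7 of 14 Control cells and 168 UMIs in 34 of 44 SC300 cells (log2 ratio 1.53, 0.79 to 2.37). Ccl4 had 41 and 658 UMIs, of which 1 Control cell held 39 (log2 ratio 2.14, 1.69 to 2.64). Ccl3 had 81 and 445 UMIs (log2 ratio 0.60, 0.25 to 0.96). Ccl6 was lower, with 27 UMIs in 6 Control cells and 33 UMIs in 7 SC300 cells (log2 ratio -1.57, -2.35 to -0.78). Cxcl3 had 9 UMIs in the Control library and 42 in the SC300 library. Macrophages held 11.1% and 88.1% of them and microglia 77.8% and 0%, too few in either gate to be compared.

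The median log2 ratio of the 11 macrophage members was 0.30, beside 0.10 over all genes. The Control macrophages were too few to fix these ratios. Without the 3 highest cells of each library Ccl12 moved from -0.12 to 3.45, Cxcl2 from -0.23 to 1.66 and Cxcl1 from 0.30 to 1.36. Over 9 alternatives the log2 ratio of Ccl2 ran from -0.18 to 1.14 and that of Ccl7 from -0.39 to 0.83, and Ccl3 was past the fold in 6 of them. Of 13 immediate-early and heat shock genes compared in this gate, 11 were higher in SC300 and none lower, with a median log2 ratio of 0.89. The sum of the 14 genes of that list in the files was 8576 and 17700 CPM, and Il1b stood at 261 and 1928 CPM. Pf4, a chemokine under another kind of symbol, was lower, at 6023 and 2181 CPM. The part of that early response, and of the astrocyte RNA in this gate, was not tested.

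Over whole libraries several of these ligands were higher in SC300, and the gate of macrophages held much of that. Ccl7 had 815 UMIs in Control and 2224 in SC300, of which 386 and 1560 lay in gated macrophages and 374 and 420 in microglia. Ccl24 had 17 and 176 UMIs, of which 16 and 168 lay in macrophages. Ccl2 had 4803 and 7855 UMIs, of which 379 and 1874 lay in macrophages and 4042 and 5440 in microglia. The share of macrophages was 0.33% of Control cells (0.18 to 0.55, Clopper-Pearson) and 1.01% of SC300 cells (0.73 to 1.35). Stromal cells were also a larger share in SC300, at 0.33% (0.18 to 0.55) and 0.82% (0.58 to 1.14). The sum over a whole library does not by itself separate more cells of a type from more RNA per cell. The macrophage gate held 103434 UMIs of all genes in Control and 375578 in SC300. Within it the log2 ratios were 0.15 for Ccl7, 0.45 for Ccl2 and 1.53 for Ccl24, from few Control cells. The part of the larger number of macrophages was not tested.

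**Figure D3:**
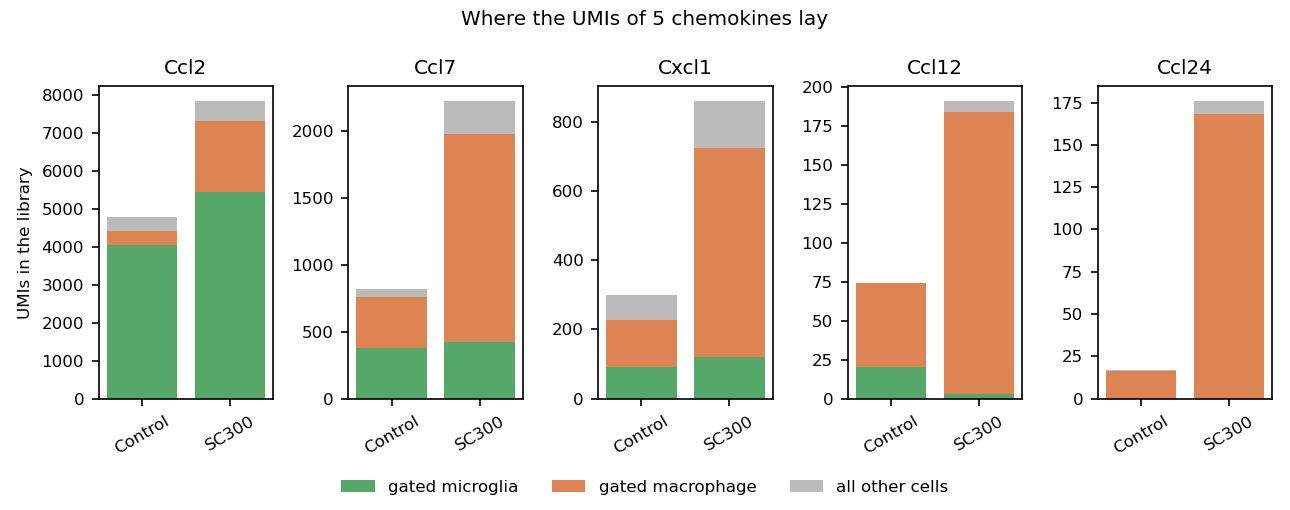
UMIs of 5 chemokines in each library, stacked by gated microglia (green), gated macrophages (orange) and all other cells (grey), each panel on its own axis from 0; the libraries hold 51382276 and 56390355 UMIs in all. The orange part is larger in SC300 for every gene shown, and the green part of Ccl7 is close to equal.

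**Figure D4:**
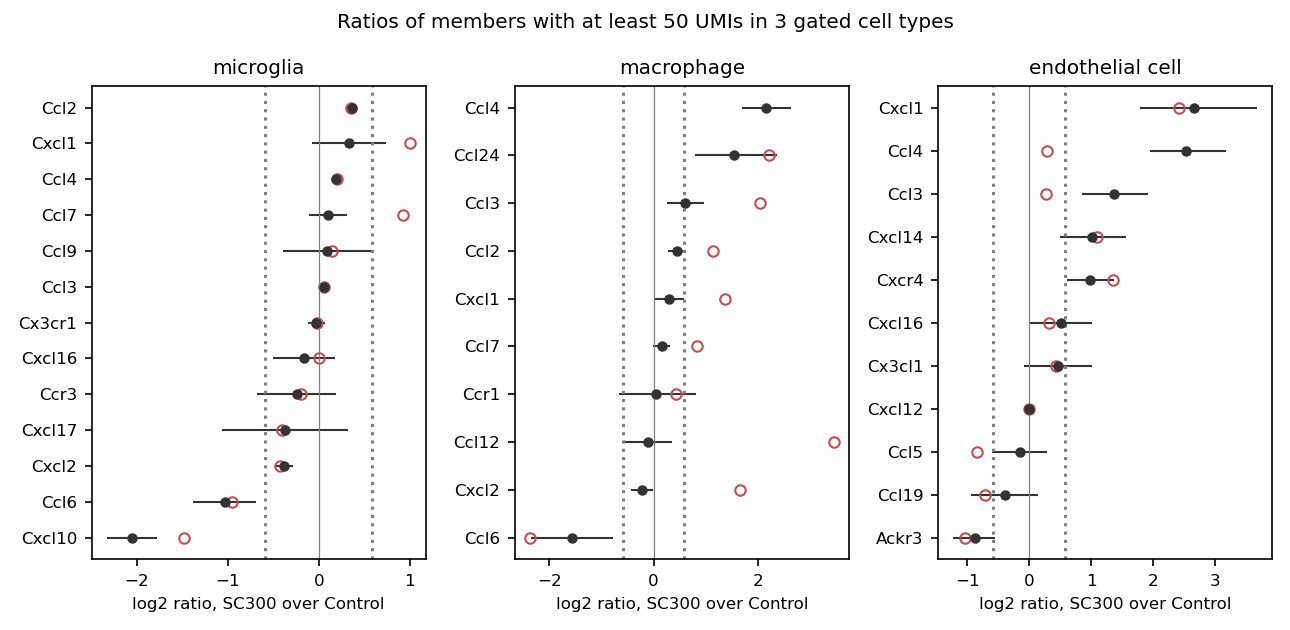
Log2 ratios of SC300 over Control for members with at least 50 UMIs in gated microglia, macrophages and endothelial cells; black points and bars are values with 95% counting intervals, open red circles the values without the 3 highest cells of each library (not drawn where a library then holds 0), and dotted lines the 1.5-fold limits. In microglia only the black points of Cxcl10 and Ccl6 lie past the limits, while the red circles of Ccl7 and Cxcl1 also do. In macrophages most red circles lie far from their black points.

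Cxcl12 was the chemokine of the vessel wall and stood at close levels in the endothelial cells of both libraries. It had a UMI in 312 of 331 Control and 272 of 288 SC300 endothelial cells and stood at 1968 CPM (1916 to 2020) and 1965 CPM (1916 to 2016), and the log2 ratio was 0.00 (-0.06 to 0.05). The ratio was 0.135 with clusters in place of the gate, 0.127 with a wider margin of the gate and 0.183 with every cell weighted alike. These values lay within the fold but above that interval. In the mural gate Cxcl12 stood at 920 CPM (823 to 1026) and 1397 CPM (1282 to 1520), and the log2 ratio was 0.60 (0.40 to 0.81). That value was not held when the mural cluster of 163 and 172 cells took the place of the gate, where it was 0.05. This cluster was mixed as well. Of its cells 84 passed the mural gate, 68 the endothelial gate and 180 no gate, and their part was not tested. The erythroid and endothelial markers given above moved in the mural gate too, and their part was not tested. With haemoglobin, mitochondrial and ribosomal protein genes left out of the scaling, the log2 ratio in that gate was 0.63. In the stromal gate of 14 and 36 cells Cxcl12 was lower, at 208 and 113 CPM, and so were the endothelial markers, at 1976 and 251 CPM in sum, and the mural markers, at 642 and 174 CPM, whose part was not tested. Cells that passed no gate held 31.0% and 31.7% of all Cxcl12 UMIs, at 723 and 698 CPM.

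The receptors of Cxcl12 in endothelial cells differed in opposite directions. Cxcr4, the signalling receptor, had 87 UMIs in 41 of 331 Control cells (12.4%) and 183 UMIs in 88 of 288 SC300 cells (30.6%), that is 30.7 CPM (24.6 to 37.9) and 60.7 CPM (52.2 to 70.2). Its log2 ratio was 0.98 (0.61 to 1.37), and 1.35 without the 3 highest cells. Ackr3, the scavenger, had 201 UMIs in 104 Control cells (31.4%) and 116 UMIs in 63 SC300 cells (21.9%), and the log2 ratio was -0.88 (-1.23 to -0.55). In cells thinned to 2000 UMIs the shares were 3.88% and 10.0% for Cxcr4 and 10.7% and 5.58% for Ackr3. Microglia had a Cxcr4 UMI in 0.45% and 0.93% of cells, and in 0 and 0.48% when thinned.

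**Figure D5:**
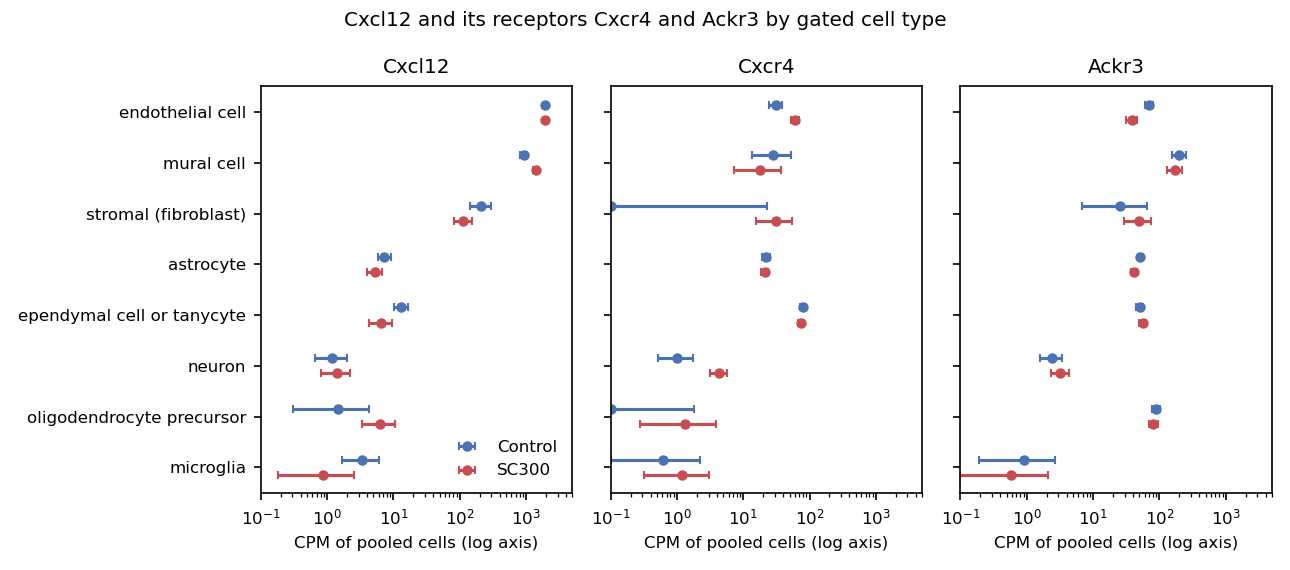
CPM (log axis) of Cxcl12, Cxcr4 and Ackr3 in 8 gated cell types in the Control (blue) and SC300 (red) library, with Poisson 95% intervals; points at the left edge have 0 UMIs. Cxcl12 is highest in endothelial cells, where the libraries coincide, while Cxcr4 lies higher and Ackr3 lower in SC300.

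Of the 11 members compared in endothelial cells 5 were higher, against 4.38% of 7758 genes, and 1 was lower, against 3.67%. Cxcl14 had 44 UMIs in 31 cells and 95 UMIs in 52 cells (log2 ratio 1.02, 0.49 to 1.57). It was 0.39, within the fold, where clusters took the place of the gate. The 6 astrocyte markers summed to 280 and 444 CPM in the endothelial gate, and their part was not tested. Cxcl1 had 12 UMIs in 5 cells and 81 UMIs in 10 cells, with 43 in 1 SC300 cell. The calls of Ccl3 and Ccl4 rested on few cells, and their log2 ratios of 1.37 and 2.54 came to 0.27 and 0.29 without the 3 highest. Cxcl16, Cx3cl1, Ccl5 and Ccl19 were within the fold. The value of Ccl5, -0.16, depended on few cells. It was past the fold at -0.84 without the 3 highest cells of each library and at -0.85 with every cell weighted alike. With clusters in place of the gate it was 0.37. Immediate-early and heat shock genes were lower here in 7 of 14 and higher in none, with a median log2 ratio of -0.59, and their part was not tested.

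Ackr3 was also found outside the vessels. It stood at 89.0 and 81.4 CPM in oligodendrocyte precursors, at 51.2 and 41.4 CPM in astrocytes and at 50.9 and 56.1 CPM in ependymal cells and tanycytes, and all of these ratios were within the fold. Cxcr4 stood at 80.4 CPM (72.9 to 88.3) and 74.1 CPM (66.0 to 82.9) in ependymal cells and tanycytes, its highest levels among the larger gates, and at 21.9 and 21.1 CPM in astrocytes. In neurons Cxcr4 was scarce, with 12 UMIs in 8 of 477 Control cells and 52 UMIs in 20 of 471 SC300 cells (log2 ratio 2.08, 1.16 to 3.12).

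Astrocytes held most of Cxcl14, a chemokine whose receptor is not settled. It had a UMI in 80.3% of Control and 80.5% of SC300 astrocytes, at 436 CPM (424 to 449) and 364 CPM (353 to 375), and the log2 ratio was -0.26 (-0.32 to -0.20). In neurons it stood at 36.0 and 52.7 CPM (log2 ratio 0.55, 0.37 to 0.73), so that it was lower in SC300 in one type and higher in the other, both within the fold. In neurons the value was past the fold, between 0.61 and 0.71, under 4 of 9 alternatives, namely a wider margin of the gate, scaling by the median of ratios, cells weighted alike and the 3 highest cells left out. The 10% of neurons with the most held 95.1% and 91.1% of the neuronal UMIs, with 69 of 477 and 95 of 471 cells positive.

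In astrocytes 3 of 14 members were higher, against 2.95% of 10308 genes, and 2 were lower, against 2.49%. The higher ones, Ccl7, Ccl2 and Ccl4, each rested on 1 SC300 cell with 80, 108 and 168 UMIs. These calls were lost without doublets. Cxcl10, given above, was among the lower ones.

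Neurons held Cx3cl1 and Ccl27 at close levels. Cx3cl1 stood at 95.9 CPM (90.4 to 102) and 85.5 CPM (80.4 to 90.9), and the log2 ratio was -0.17 (-0.29 to -0.04), with a UMI in 329 of 477 and 293 of 471 neurons. Ccl27, known from skin, stood at 86.1 and 86.6 CPM (log2 ratio 0.01, -0.12 to 0.13). Its receptor Ccr10 had 49 UMIs in each library, of which 21 and 22 lay in neurons. In neurons 3 of 7 members were higher, against 2.76% of 10655 genes, and 0 were lower, against 3.06%. Those higher were Cxcr4, Ccl3 and Ccl4, and without doublets Ccl3 and Ccl4 came to -0.62 and -0.23.

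Ccl3 and Ccl4 in neurons and in the oligodendrocyte line were read against their share in microglia. Ccl4 had a UMI in 68.0% and 74.6% of microglia, and in cells thinned to 2000 UMIs in 66.5% and 69.7%. In neurons the shares were 14.3% and 16.6%, and 1.73% and 1.30% when thinned, beside 1.53% and 2.61% of thinned astrocytes. No share of free RNA was measured, and the source of these UMIs was not tested. In oligodendrocyte precursors 3 of 5 members were higher, against 2.52% of 7854 genes, and 0 were lower, against 2.51%. Among these were Ccl3 with 5 and 120 UMIs and Ccl4 with 24 and 200. Csf1r, a receptor of microglia, had 5 and 112 UMIs in the same cells, and all 3 calls were lost without doublets.

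In mature oligodendrocytes 0 of 5 members were higher, against 2.51% of 8616 genes, and 4 were lower, against 2.53%. Among these were Ccl2, Ccl3 and Ccl4, with 1 Control cell holding 354 of the 398 Ccl4 UMIs, and all 4 calls were lost without doublets. Ackr4, a scavenger of Ccl19 and Ccl21, had 23 UMIs in each library here, of 25 and 29 in all.

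In ependymal cells and tanycytes 0 of 8 members were higher, against 3.7% of 9239 genes, and 2 were lower, against 6.29%. Those lower were Cxcl12, with 70 and 27 UMIs, and Ccl4, with 54 and 27 UMIs (log2 ratio -0.63, -1.35 to 0.06). In the same gate the 6 endothelial markers, all detected, summed to 47.7 and 10.7 CPM, and the 6 microglial markers, of which 4 were detected, to 8.82 and 4.62 CPM, and their part was not tested. Ccl17 stood at 18.8 CPM (15.3 to 22.8) and 22.6 CPM (18.2 to 27.7), and the log2 ratio was 0.27 (-0.16 to 0.69), and its UMIs lay in 40 of 312 Control and 31 of 214 SC300 cells. Ccl27 stood at 22.7 and 28.7 CPM there.

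The smaller vascular gates and the lymphocytes were read with caution. In the mural gate 1 of 3 members, Cxcl12, was higher, against 5.08% of 2522 genes, and 0 were lower, against 7.93%. Ccl19, a ligand of Ccr7 on lymphocytes and dendritic cells, stood there at 124 and 85.2 CPM. In the stromal gate 0 of 2 members were higher, against 14.9% of 1620 genes, and both Cxcl12 and Ccl19 were lower, against 7.47%, beside the lower endothelial markers given above. Endothelial cells held 24.0% and 21.6% of the Ccl19 UMIs of the libraries. Only 9 Control and 8 SC300 cells were lymphocytes and they were not compared. Ccl5, a ligand made by T and NK cells, had 560 UMIs in 3 Control cells and 176 in 1 SC300 cell, and Xcl1 had 52 and 5 UMIs in as many cells. Cells that passed no gate held 23.9% of the Ccl5 UMIs in Control and 50.8% in SC300, against 53.1% and 22.1% in lymphocytes. In the lymphocyte gate the T and NK cell markers summed to 1830 and 1397 CPM and the endothelial markers to 1254 and 4100 CPM.

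Set by ligand and receptor, the pairs differed in how far the data held both sides. Among the pairs with both sides above 50 UMIs were Cx3cl1 in neurons with Cx3cr1 in microglia, and Cxcl12 with Cxcr4 and Ackr3. Others were Ccl27 with Ccr10, Ccl3 and Ccl7 with Ccr1, and Ccl24 with Ccr3. Of these receptors Ccr10 had 98 UMIs in both libraries, Ccr1 105 and Ccr3 203. Cxcl10 and Cxcl16 had a ligand above 50 UMIs, but their receptors Cxcr3 and Cxcr6 had only 8 and 3 UMIs in both libraries. Ccr7, the receptor of Ccl19, had 2 UMIs, and Ccr6, Ccr9, Cxcr5 and Cxcr2 had 47, 7, 5 and 1. The remaining scarce members had between 1 and 41 UMIs. Among them Ccl1 had 24 of its 26 UMIs in neurons, and Cxcl13 had all of its 23 Control UMIs and its 1 SC300 UMI in microglia.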

How the data were processed

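The authors deposited raw counts of UMIs per gene and cell for each library, made with Cell Ranger (3.0.1 in the submitters' processing notes) against an Ensembl transcriptome of the rat, without normalization. The deposited barcodes, 4488 and 4524, equal the cell numbers of the series' design text, and 4296 and 4379 have at least 200 detected genes. Members and gene lists were chosen with earlier results of these data known. All members were accounted for, those with at least 50 UMIs with values and the others by counts, named where cell types held them unequally or where they pair with a described member, except 1 gene that is counted but not reported here.

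Each marker was log-scaled by the mean of its 50 highest cells. A cell took the list with the highest mean of 3 markers, with at least 2 markers detected and a 1.25-fold margin over the next list. Clusters (scanpy 1.11.5, Leiden, resolution 1, 2000 variable genes without members, 30 components, 20 neighbours) were the alternative, and their names are rebuilt. Scrublet marked 70 and 73 cells as doublets, which were kept. A count of 0 was set to 3 UMIs for a ratio. The calculation was tested on simulated data with Python 3.11.15 and scipy 1.17.1. Alternatives on gates, scaling, cells and thresholds are given at the end.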

Additional observations from a re-analysis of the deposited data

Results flagged for a closer look

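Some members were higher in SC300 in one cell type and lower in another. Cxcl14 had log2 ratios of 0.55 in neurons and 1.02 in endothelial cells and of -0.26 in astrocytes. The astrocyte markers summed to 280 and 444 CPM in endothelial cells and to 114 and 54.9 CPM in neurons, and their part was not tested. Ccl3 had 4.45 in oligodendrocyte precursors and 0.60 in macrophages and -1.70 in mature oligodendrocytes. Without doublets the values of Ccl3 in the oligodendrocyte line rested on fewer than 50 UMIs, at 0.89 and -0.44. With 1 library a group, the difference between the cell types was not tested for either gene.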

How the results depend on the processing

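No paired analysis was possible because each group had 1 library. The count of pairs higher past the fold, 19 of 80, was 9 of 71 without doublets and 31 of 115 with at least 20 UMIs, and the count lower, 14 of 80, was 23 of 115 with at least 20 UMIs, 6 of 63 with at least 100 UMIs and 8 of 80 at 2-fold. With clusters in place of the gates, the CPM in Control and SC300 were 3468 and 3761 for Ccl3 and 4847 and 5733 for Ccl4 in microglia, 1582 and 2782 for Ccl7 in macrophages, and 1915 and 2102 for Cxcl12 in endothelial cells, and 77.6 for Cx3cl1 in SC300 neurons. Thinning to 2000 UMIs gave shares of 65.5% and 68.8% for Ccl3 in microglia, and in endothelial cells 80.9% and 84.4% for Cxcl12, 3.88% and 10.0% for Cxcr4 and 10.7% and 5.58% for Ackr3. At least 3 UMIs were found in 63.3% and 66.9%, 84.3% and 86.1%, 3.02% and 8.33%, and 7.55% and 4.86% of these cells. The 45 log2 ratios checked were a chosen set of the genes described. They left out the calls that doublets decided and those made in the stromal gate and in ependymal cells and tanycytes. Of these 45, 15 moved beyond their counting interval with clusters, 13 without the 3 highest cells and 11 with every cell weighted alike. The macrophage and mural clusters also held cells of other gates, as given above. At most 6 moved under each of the other 6 alternatives. Among these 45 no ratio past the fold changed sign. Among the calls that doublets decided several did. For example, Ccl3 went from 0.62 to -0.62 in neurons and from 1.372 to -1.525 in endothelial cells, and Ccl2 in mature oligodendrocytes from -1.63 to 1.88. Without doublets the values in endothelial cells and mature oligodendrocytes rested on fewer than 50 UMIs. Over these 9 alternatives Cxcr4 in endothelial cells lay between 0.92 and 1.46, Ackr3 there between -1.08 and -0.70, Cxcl10 in microglia between -2.05 and -1.48 and Ccl6 there between -1.17 and -0.96, while Ccl2 in macrophages ran from -0.18 to 1.14. The cause of these ranges was not tested. None of the 9 alternatives left out only the Control microglial cell that held 342 Cxcl10 UMIs. Members with few UMIs were limited by depth.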
